A study of Mus musculus with 9 samples.

Results

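Quiescent mouse embryonic fibroblasts titled p27CK (CK) were compared with those titled p27WT (WT), with 3 arrays in each group, for every one of 19937 genes. These are the genes that the annotation names through a probe set with a single symbol, among 34760 probe sets, and the brightest such probe set stands for its gene. The 6 arrays are part of 9. The other 3 come from cells titled p27KO (KO), which are set beside CK where they are named and enter the fit that estimates the spread. Mouse embryonic fibroblasts are connective tissue cells grown from embryos, and cultures of them are mixtures of fibroblasts from several parts of the body. The WT cells are labelled wild type, and the CK and KO cells carry the alleles p27CK and p27KO of the Cdkn1b gene, which encodes p27, an inhibitor of cell division. All groups were cultured with 10% fetal bovine serum and were then kept for 72 h without serum, which stops fibroblasts from dividing. In the literature the CK allele encodes a p27 with changed residues that cannot bind cyclins or their kinases, while the labels give the allele's name only. The extraction protocol, which is the same for all samples, names wt and delta51 mice and does not say how these map onto the titles. Whether the 3 arrays of a genotype stand for separate embryos or cultures is not in the labels. The p-values therefore measure only how far these arrays vary, which may be technical, and an effect of genotype cannot be told apart from one of the cultures used.

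The protein p27 binds complexes of cyclins with cyclin-dependent kinases (CDKs) and holds cells in G1, and it accumulates when fibroblasts are deprived of serum. It also has partners outside the cell cycle, among them the microtubule-destabilising protein stathmin and the small GTPase RhoA, and it can take part in repression of transcription together with E2F4 and pocket proteins. An allele that leaves the protein in place but frees the CDKs is used to separate these roles.

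Cdkn1b was still transcribed in CK cells. Its log2 level was 10.99, 11.14 and 11.16 on the CK arrays, 11.42, 11.50 and 11.47 on the WT arrays and 7.44, 7.25 and 7.45 on the KO arrays. On this probe set, the brighter of a pair, the CK arrays lay just under the WT arrays without overlap and far above the KO arrays. The other probe set was dim in all groups, with means of 7.43 in WT, 7.08 in CK and 7.60 in KO, and on it CK lay below both, at -0.34 from WT (limma adjusted p = 0.00923 over all probe sets). The difference of -0.365 between CK and WT (SE 0.066, n = 3 each) had a Benjamini-Hochberg adjusted p of 0.00152 in limma. The two-sided exact permutation test gave p = 0.1, the smallest that 3 arrays against 3 allow. Array medians lay between 7.29 and 7.40, and arrays of one genotype correlated at 0.995 or more.

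Levels are log2 values throughout, so that a difference of 1 is a 2-fold change, and a gene was called where limma's adjusted p for CK against WT was under 0.05. By this rule 8434 of 19937 genes (42.3%) were called, 4120 higher in CK (20.7%) and 4314 lower (21.6%). Arrays of CK and WT did not overlap for 48.5% of genes. Because so many genes passed, size separates them better than the call. At least 2-fold differences were called for 1452 genes (7.28%), 684 higher (3.43%) and 768 lower (3.85%), at least 4-fold differences for 394, at least 8-fold for 132 and at least 32-fold for 10. At the other end, the 95% interval of the difference lay within 1.25-fold for 11059 genes, 2461 of them with mean levels of at least 8.92, the 60th percentile of genes, in both groups. Where one group lay under the 40th percentile (7.24), as for 381 of the 1452 genes, its level may be background, since the table has no detection calls, and the difference may then be understated. For comparison, CK and KO differed at 8274 genes (41.5%), 3973 higher in CK (19.9%) and 4301 lower (21.6%). Centring arrays on their medians lowered the share of higher calls in that comparison from 48% to 35.1%. Both comparisons share the CK arrays, so their values are only set side by side below. Called counts in the gene lists below are to be read beside the 42.3% over all genes. For the 7289 genes at or above the 60th percentile in both groups, the share called was 64%.

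**Figure D1:**
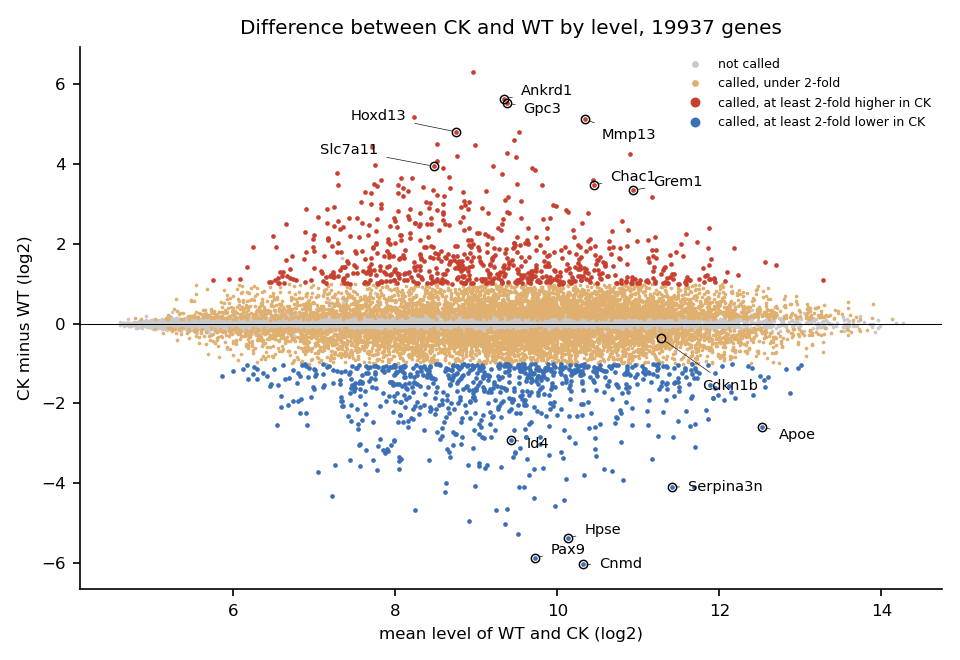
Each point is a gene, with its mean log2 level over the WT and CK arrays on the horizontal axis and the CK minus WT difference on the vertical axis. Red and blue points are the 684 and 768 genes called at least 2-fold higher or lower, which reach from background levels up to levels of 13, and named genes are circled.

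The genes of one chromosome shifted together by small amounts. Among 7289 genes at or above the 60th percentile in both groups, 64% of which were called, those on chromosome 4 had a median difference of 0.33, with 74.7% of 411 genes higher. The CK arrays gave 0.31, 0.29 and 0.34 for this chromosome, against 0.04, 0.02 and -0.05 on the WT arrays. Medians were also above 0 on chromosomes 9 (0.23), 5 (0.18), 8 (0.17), X (0.14) and 13 (0.13), and below 0 on chromosomes 11 (-0.21), 18 (-0.20) and 1 (-0.17). With each chromosome cut into 3 parts of equal gene number, the middle part of chromosome 11 had a median of -0.35, with 16.8% of its 196 genes higher. On each of these chromosomes the 3 CK arrays lay on the same side of all 3 WT arrays. DNA copy number was not analysed here, and its part in these shifts was not tested. When these brighter genes were centred on the median of such a part, a step chosen after seeing the data, 8325 genes were called in place of 8434 and 1390 at least 2-fold in place of 1452, and the median of each gene list moved by less than 0.1. Dimmer genes were not centred and kept their values. For lists with many dimmer members, this step therefore cannot show how far the median depends on such shifts.

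**Figure D2:**
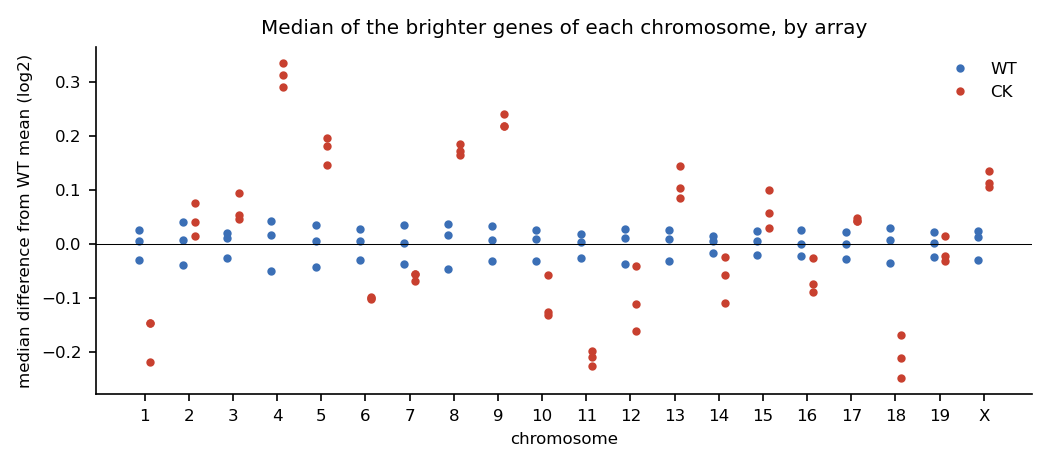
For each chromosome, points give the median over its brighter genes of the difference from the WT mean on each of 3 WT arrays (blue) and 3 CK arrays (red), in log2 units. The CK arrays lie together and away from the WT arrays most clearly on chromosomes 4, 9 and 11.

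Genes of amino acid supply had the highest median difference of the 56 gene lists taken whole. The transcription factor ATF4 is made when translation is slowed by amino acid shortage or stress in the endoplasmic reticulum, and it switches on amino acid transporters, enzymes that make serine, glycine, asparagine and cysteine, and the synthetases that charge tRNAs. Of 42 measured genes of this programme, 39 were higher in CK and 2 lower, 22 of the 39 at least 2-fold, and their median difference was 1.13 against -0.01 over all genes. Against KO, 37 were higher in CK and 3 lower, with a median of 0.91. Genes from this list beyond those of largest difference, and those from other lists that are named for their role, were chosen after their values were seen.

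Among the factors, all 8 were higher. Chac1, which degrades glutathione and is a sensitive ATF4 target, rose from 8.84, 8.80 and 8.50 in WT to 12.22, 12.18 and 12.18 in CK, with 9.35, 9.23 and 9.27 in KO. The WT and KO arrays lay close together and the CK arrays 11.1-fold above WT (difference 3.48, SE 0.082, limma adjusted p = 4.65e-09). Trib3, a pseudokinase that restrains ATF4, rose by 1.73, and Ddit3, the stress factor CHOP, by 1.19. Atf4 itself rose by 0.53, from 9.21, 9.33 and 9.16 to 9.79, 9.74 and 9.76, and its partners Cebpg and Cebpb by 0.59 and 0.50. ATF4 is known to be controlled largely at translation, which arrays do not measure.

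Transporters gave the steepest rises. Slc7a11, the cystine importer, was at 6.56, 6.56 and 6.39 in WT, 6.70, 6.64 and 6.55 in KO, and 10.56, 10.30 and 10.48 in CK. Both WT and KO lay under the 40th percentile, and CK was 15.4-fold above WT (limma adjusted p = 1.4e-09). Slc7a3, which carries cationic amino acids, rose by 3.75, the leucine carrier Slc7a5 by 2.40, the glutamine carrier Slc38a1 by 2.33 and the arginine carrier Slc7a1 by 2.07. Slc38a4 rose by 3.07 from WT, but its KO arrays, at 11.44, 11.36 and 11.34, lay above the CK arrays at 11.03, 11.09 and 11.15. One carrier went the other way, the glutamate transporter Slc1a3, which fell by 2.20. Slc38a2, a carrier of small neutral amino acids, was at 13.28, 13.29 and 13.27 in WT and 13.27, 13.27 and 13.28 in CK and was not called (adjusted p = 0.921).

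Of 11 enzymes of synthesis, 10 were higher. Asns, asparagine synthetase, went from 11.27, 11.13 and 11.31 to 13.16, 13.12 and 13.15, with KO between them at 12.06, 12.04 and 12.07. The serine pathway rose at each step, Phgdh by 1.24, Psat1 by 2.16 and Psph by 1.68, as did the mitochondrial folate enzymes Shmt2 (1.42) and Mthfd2 (1.94). Aldh1l2, another mitochondrial folate enzyme that is not among the 11, rose by 2.57. Gpt2, the mitochondrial alanine transaminase, rose by 2.08, Aldh18a1, which makes the precursor of proline, by 1.46 and Cth, the last enzyme of cysteine synthesis, by 1.44. Cbs, which stands before Cth in that pathway, fell by 0.55. All 11 tRNA synthetases measured were higher, from Cars (1.45) and Tars (1.42) down to Mars1 (0.56) and Wars (0.55).

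From other lists, chosen after their values were seen, 4 genes known as ATF4 targets are given as single values. The stress factor Atf3 rose by 2.42, Eif4ebp1, which restrains cap-dependent translation, by 1.79, Sesn2, a sensor of leucine, by 1.47 and the secreted stanniocalcin Stc2 by 1.56. Of 20 genes of the unfolded protein response in the endoplasmic reticulum 7 were higher and 3 lower, with a median of 0.12, and with chromosome parts centred 11 were higher and 2 lower. Hyou1, a chaperone of that compartment, rose by 1.00, while Calr, calreticulin, was not called (0.10, adjusted p = 0.108). Of 12 cytosolic heat shock genes 3 were higher and 1 lower, and with chromosome parts centred 2 were higher and 3 lower. Hspa8 was not called (0.06, adjusted p = 0.268).

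**Figure D3:**
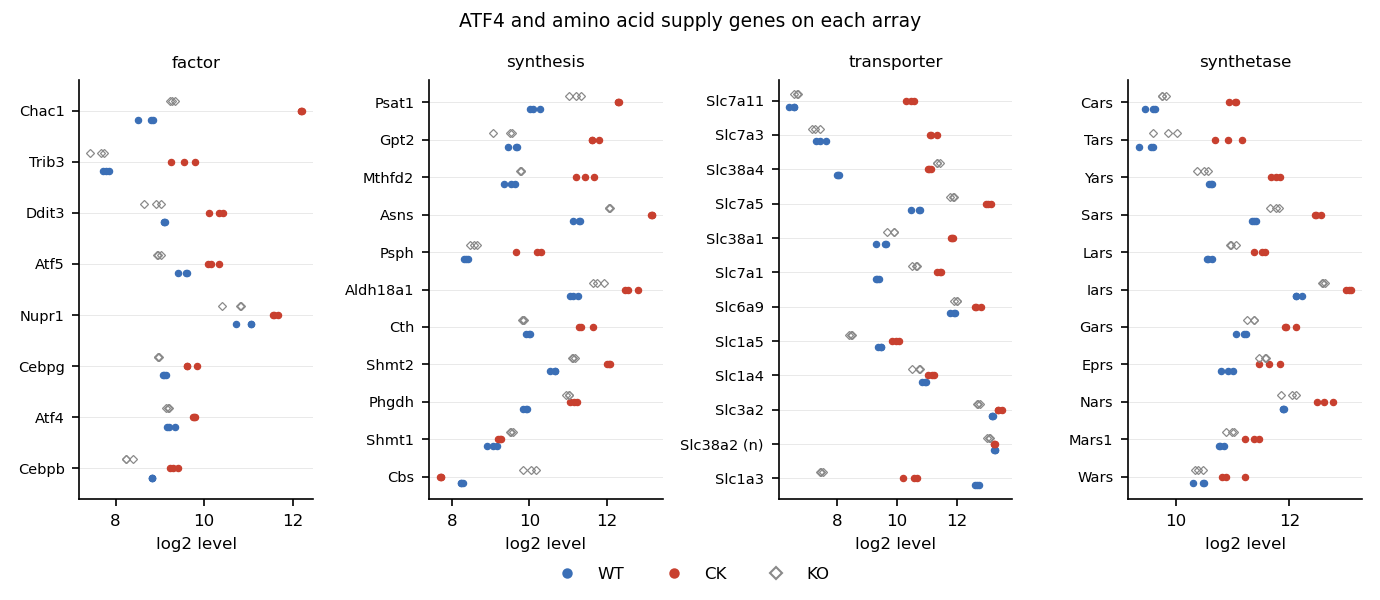
Log2 level of each of 42 ATF4 and amino acid supply genes on each WT (blue), CK (red) and KO (open grey) array, in panels of factors, synthesis enzymes, transporters and tRNA synthetases, ordered by the CK minus WT difference. CK arrays lie to the right of WT arrays for all genes except Cbs, Slc1a3 and Slc38a2, the latter marked (n) as not called.

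ATF4 binds DNA as a partner of C/EBP factors at a composite element. The letters TGATGNAA, a core of that element, were searched on both strands of RefSeq promoters of build GRCm38.p6, from 250 bases before to 50 bases after each start. They were found in 10 of 33 genes of the group with a promoter (30.3%), against 565 of 15613 measured genes (3.62%). The 10 were Chac1, Trib3, Slc7a11, Yars, Asns, Gars, Nupr1, Slc1a4, Iars and Tars, all of them higher in CK. So were 39 of the 42 measured genes of the whole group, so the rise does not set the 10 apart. The stretches of 4 genes are shown because they span the roles of the group, with the matching letters in capitals. They lie at chr3:50443628-50443685 on the minus strand for Slc7a11, chr6:7693210-7693257 on the minus strand for Asns, chr2:119351024-119351081 on the plus strand for Chac1 and chr15:11399659-11399698 on the minus strand for Tars.
Slc7a11: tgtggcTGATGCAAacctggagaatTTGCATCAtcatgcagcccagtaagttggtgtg
Asns: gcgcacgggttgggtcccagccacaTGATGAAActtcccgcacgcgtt
Chac1: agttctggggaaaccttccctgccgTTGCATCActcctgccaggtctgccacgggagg
Tars: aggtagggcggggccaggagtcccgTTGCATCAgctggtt
Slc7a11, with the largest rise of these, holds the letters in both orientations. A match describes the letters only and is not evidence of binding or of a cause.

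Proteasome and translation factor genes were also mostly higher, with 83.9% and 71.4% called against 42.3% of all genes. Of 31 proteasome subunits 25 were higher and 1 lower, with a median of 0.38 and none at 2-fold. Psmd4, the ubiquitin receptor of the regulatory particle, was at 9.76, 9.85 and 9.75 in WT and 10.51, 10.43 and 10.62 in CK, and the core subunit Psmb2 rose by 0.68. Against KO, 27 of the 31 were called higher in CK by limma and 0 lower, and none was lower at an unadjusted p under 0.05 either. Of 28 translation factors 18 were higher and 2 lower, led by Eif4ebp1 and by Eif2s2, a subunit of the initiator tRNA carrier, at 1.05. The cap-binding protein Eif4e rose by 0.72. Ribosome biogenesis (36 higher, 5 lower of 54, median 0.28, and 3 lower with chromosome parts centred) and cytosolic ribosomal proteins (23 higher, 4 lower of 52, median 0.13) shifted less. Their shares called were 75.9% and 51.9%, the latter below the 64% of genes at or above the 60th percentile in both groups. Against KO, 26 of the 52 ribosomal proteins were called lower in CK by limma and 0 higher, with 1 higher at an unadjusted p under 0.05.

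Of the 4 INK4 inhibitors, which block CDK4 and CDK6, 2 rose steeply, 1 fell and 1 was not called. Cdkn2a went from 7.88, 7.81 and 7.71 to 11.02, 10.81 and 11.09, and Cdkn2b from 8.70, 8.45 and 8.60 to 11.14, 11.27 and 11.26. The KO arrays lay between WT and CK for both genes, at 8.94, 8.94 and 8.87 and at 9.34, 9.34 and 9.29. These genes are neighbours on chromosome 4. Cdkn1c, the p57 relative of p27, rose by 0.81, while its KO level of 8.47, 8.54 and 8.54 was below WT. Cdkn2c fell by 0.28 and Cdkn2d was not called (difference 0.13, adjusted p = 0.35).

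Their targets and partners moved in both directions. The E cyclins, which drive entry into S phase with CDK2, rose, Ccne2 by 1.25 and Ccne1 by 0.73, and Cdk6 rose by 0.60. Ccnd1 went from 12.74, 12.67 and 12.92 to 12.56, 12.45 and 11.92, a difference of -0.47 (adjusted p = 0.0284) that was not called without WT array 1 (adjusted p = 0.0652) or without WT array 3 (adjusted p = 0.0975). Cdk2 fell by 0.41 and Ccnd3 by 0.24, while Cdk4 (0.03) and Ccnd2 (0.11) were not called. Of 7 listed partners of p27 apart from CDKs 3 were higher and 0 lower in limma, with a median of 0.01. At an unadjusted p under 0.05 in limma, 1 was lower. The largest difference was that of the stathmin gene Stmn1, from 10.43, 10.49 and 10.64 to 12.11, 11.88 and 11.55. Stmn1 lay lower in KO, at 9.76, 9.52 and 10.08. Src, a kinase that phosphorylates p27, rose by 0.72 and Foxo1, which activates Cdkn1b, by 0.56. Skp2, which marks p27 for degradation, rose by 0.51, whereas Cul1, the scaffold it works on, fell by 0.51.

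DNA replication genes were mostly higher. Of 53 measured, 31 were higher and 2 lower, with a median of 0.37. The share called, 62.3%, was above the 42.3% over all genes. It was close to the 64% of genes at or above the 60th percentile in both groups. Over all genes 20.7% were higher and 21.6% lower. Pole, the catalytic subunit of the leading strand polymerase, rose by 1.51, Tipin, of the fork protection complex, by 1.14, Cdt1, which loads the helicase, by 1.05, and the helicase subunit Mcm7 by 1.03. Orc5 and Pole2 fell by 0.31 and 0.43. Pcna, the sliding clamp, was at 11.57, 12.06 and 12.14 in WT and 12.79, 12.38 and 12.09 in CK, where the groups overlap and no call was made (adjusted p = 0.0602). The CK arrays were not alike for such genes, and array 3 had the lowest CK level of Pole (10.41 against 10.85 and 10.68), Ccne2 (8.10 against 8.96 and 8.66) and Mki67 (10.18 against 10.97 and 10.72). WT array 3 had the highest WT level of Mki67 (10.48 against 10.03 and 9.93), and this proliferation marker was not called (difference 0.48, SE 0.263, adjusted p = 0.192). Of 42 mitotic genes 14 were higher and 1 lower, with a median of 0.32, while the share called, 35.7%, was below the 42.3% over all genes. The cytokinesis motor Kif23 rose by 1.09 and the CDK subunit Cks2 by 1.03, and the phosphatase Cdc25b fell by 1.05. Among 20 genes of pocket proteins, E2F factors and their DREAM complex, 8 were higher and 3 lower (55% called). The E2F partner Tfdp2 rose by 0.97, E2f4 by 0.64 and E2f3 by 0.62, and the pocket protein Rbl2, which keeps E2F genes silent in quiescence, fell by 0.80.

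The letters TTTNGCGC, a core of sites for E2F, were found on either strand in 13 of 44 replication gene promoters (29.5%) and in 329 of 15613 of all measured genes (2.11%). Of the 13 genes, 7 were higher in CK, 1 was lower and 5 were not called. A called and an uncalled gene are shown because the letters occurred with both outcomes, at chr9:20952810-20952867 on the minus strand for Dnmt1, the maintenance DNA methyltransferase (difference 0.95), and at chr8:75109335-75109392 on the plus strand for the helicase subunit Mcm5 (0.35, adjusted p = 0.112).
Dnmt1: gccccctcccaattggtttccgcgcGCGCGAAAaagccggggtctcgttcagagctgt
Mcm5: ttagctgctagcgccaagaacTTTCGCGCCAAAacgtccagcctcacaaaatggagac
In Mcm5 the capitals hold overlapping matches, one on each strand.

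Genes that report bone morphogenetic protein (BMP) signalling were lower in CK. BMPs signal through SMADs to the Id genes, which block differentiation factors, and to the inhibitory Smad6 and Smad7. Of 7 such targets 6 were lower, 5 of them at least 2-fold, with a median of -1.96. Id4 fell from 10.91, 10.88 and 10.87 to between 7.88 and 8.03, with KO between at 9.18, 9.14 and 9.04 (adjusted p = 9.32e-10 for CK against WT). Id1 fell by 2.32, Id2 by 2.15 and Id3 by 1.96, and Smad6 by 1.47 and Smad7 by 0.71. Skil, a target that opposes TGF-beta, was not called (0.14, adjusted p = 0.666).

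Ligands and antagonists changed as well. Bmp4 fell from 13.26, 13.31 and 13.34 to 11.26, 11.77 and 11.53, while its KO level of 13.38, 13.41 and 13.32 was close to WT. Bmp2 fell by 1.21, Gdf10 by 1.78, Tgfb2 by 1.27 and the co-receptor Eng by 2.85, whereas Bmp3 rose by 1.77 and Inhba, a subunit of activin, by 0.78. Gremlin 1, a secreted BMP antagonist, rose more than any other named gene with a level at or above the 60th percentile in both groups. Grem1 was at 9.31, 9.22 and 9.26 in WT, 12.51, 12.61 and 12.71 in CK and 8.40, 7.95 and 7.85 in KO. The antagonist Chrdl1 rose by 3.29 and Fstl3, which binds activin, by 1.92. Other antagonists went down, with Fst, follistatin, falling by 3.64, Smoc1 by 2.76 and Nog, noggin, by 0.62. The whole list of 44 genes was split, with 13 higher and 21 lower (77.3% called).

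Feedback genes of receptor tyrosine kinases and ETS factors were split, with 5 higher and 8 lower of 15. Signals through ERK induce the ETS variant factors, the Sprouty inhibitors and the DUSP phosphatases. Etv1 fell from 12.39, 12.39 and 12.44 to 8.81, 8.80 and 8.66, 12.5-fold, and was lower still in KO at 7.08, 6.82 and 6.96. Etv5 fell by 1.99 and Etv4 by 0.93, Spry4 by 2.35, Spry2 by 1.08 and Spry1 by 1.01, and Dusp6, which acts on ERK in the cytoplasm, by 0.78. In contrast Ets2 rose by 2.09 and Ets1 by 1.47, and the nuclear or inducible phosphatases Dusp4, Dusp5 and Dusp1 rose by 1.22, 0.79 and 0.33. Of 28 immediate early and AP-1 genes 17 were higher and 4 lower. Myc rose by 1.23, Nr4a1 by 1.13, Jund by 0.98 and Fosl2 by 0.95, while Jun (0.00, adjusted p = 0.988) and Srf (-0.07, adjusted p = 0.264) were not called.

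**Figure D4:**
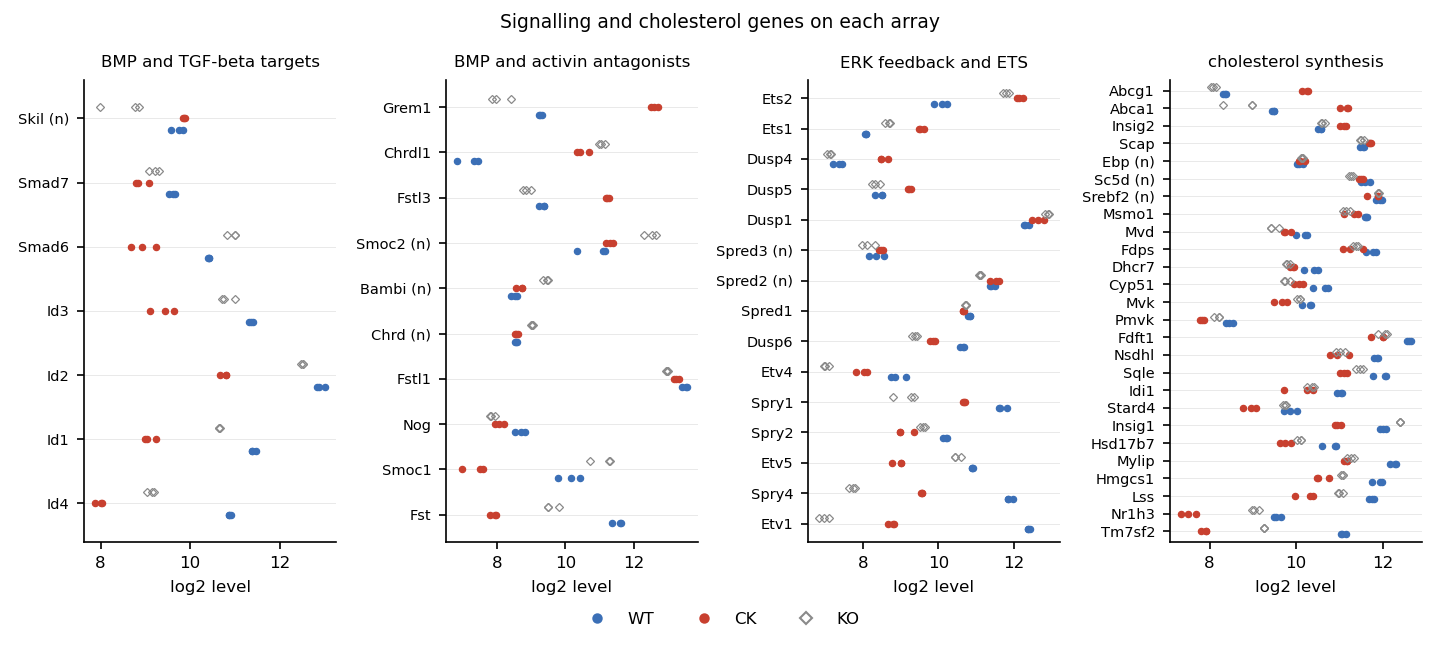
Log2 level of each gene on each WT (blue), CK (red) and KO (open grey) array for BMP and TGF-beta targets, BMP and activin antagonists, ERK feedback and ETS genes, and cholesterol synthesis genes, ordered by the CK minus WT difference, with genes not called marked (n). CK arrays lie to the left of WT for 6 of 7 targets and for 19 of 26 cholesterol genes, while antagonists and ERK feedback genes lie on both sides.

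Growth factors and receptors changed in both directions, 22 higher and 27 lower of 60 (81.7% called). Of 9 fibroblast growth factors 3 were higher and 4 lower. Fgf7, which acts on epithelia, fell from 11.81, 11.90 and 12.08 to 9.57, 9.51 and 9.58, Fgf10 fell by 2.23 and Fgf18 by 1.72. Of 16 PDGF, VEGF and related ligands 10 were higher and 4 lower, the higher ones including Angpt2 (3.23), an antagonist of the receptor Tek, Vegfc (1.83), Pdgfb (1.81) and Hgf (1.67). The HGF receptor Met rose by 2.41 and Gfra2, a receptor for neurturin, from 7.29, 7.25 and 7.21 to 11.60, 11.58 and 11.37, while of 30 receptors and ephrins, 3 of them ephrins, 19 were lower and 7 higher. In the IGF system the binding protein Igfbp3 went from 7.28, 7.20 and 7.19 to 11.48, 11.46 and 10.61 and Igfbp6 rose by 3.19. Igfbp4 fell by 1.53, Igf1 by 2.01 and the protease Pappa2, which cleaves binding proteins, by 2.93, and the receptor gene Igf1r was not called (-0.08, adjusted p = 0.579).

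Of 52 Wnt pathway genes 13 were higher and 27 lower (76.9% called). Receptors were mainly lower, 12 of 16, among them Fzd4 (-2.30), Fzd8 (-1.97) and Fzd9 (-1.48), with Fzd6 (2.26) higher. The agonists Rspo1, Rspo2 and Rspo3 fell by 2.13, 1.89 and 1.34. The antagonist Dkk2 rose from 7.10, 7.02 and 7.29 to 12.03, 11.98 and 11.78, 27.7-fold, whereas the antagonists Frzb and Sfrp4 fell by 4.08 and 3.56. Of 7 transcriptional targets 5 were higher, including Nkd2 (1.40), Lef1 (0.99) and Axin2 (0.81), and Rnf43 fell by 1.07. Most receptors were lower and most targets higher.

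Hox genes, which record the position of a cell along the body and limb, differed by cluster. Of 37 measured, 24 were higher in CK and 2 lower (70.3% called), 14 at least 2-fold, with a median of 0.31. In the HoxD cluster 8 of 9 were higher, with a median of 2.53. Hoxd13, which marks the most distal limb, rose from 6.41, 6.21 and 6.44 to 11.07, 11.07 and 11.33, 27.9-fold, and was at 6.58, 6.26 and 6.60 in KO. WT and KO lay under the 40th percentile and CK well above it, and the same held for Hoxd11 (difference 3.68), Hoxd10 (3.59), Hoxd8 (3.50) and Hoxd12 (2.53). Toward the other end of the cluster Hoxd4 rose by 1.01 and Hoxd3 by 0.31, and Hoxd1 was not called (0.06, adjusted p = 0.527).

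In the HoxA cluster 7 of 10 genes were higher and 2 lower. Its distal members Hoxa9 (1.98), Hoxa10 (1.71), Hoxa11 (1.80) and Hoxa13 (1.77) rose by more than 2-fold. Of the proximal members, Hoxa2 (0.28), Hoxa4 (0.29) and Hoxa7 (0.37) rose by less, Hoxa3 and Hoxa5 fell by 0.31 and 0.39, and Hoxa6 was not called (0.11, adjusted p = 0.344). In KO the proximal members lay above both other groups, with Hoxa5 at 9.39, 9.62 and 9.28 against 7.49, 7.58 and 7.59 in CK. In HoxC the middle members Hoxc6 (2.23), Hoxc8 (1.91) and Hoxc5 (1.09) rose, and in HoxB the changes stayed under 2-fold, with Hoxb5 rising by 0.91. For 10 of the 37 genes both groups lay under the 40th percentile. With genes under that level left out, 62.9% of all genes tested were called and 11 Hox genes were called higher in place of 24, since fewer remained in the test.

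**Figure D5:**
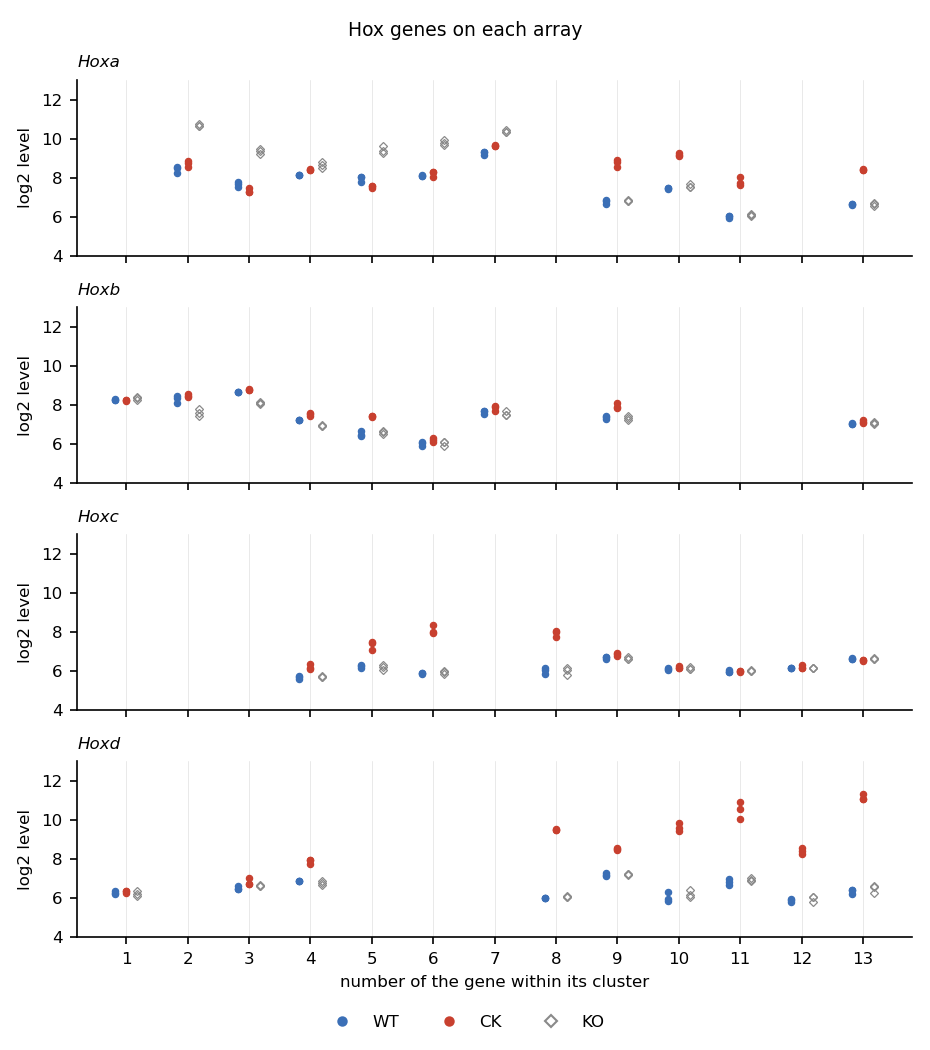
Log2 level of each Hox gene on each WT (blue), CK (red) and KO (open grey) array, in a panel for each cluster and placed by the gene's number in its cluster. CK arrays stand above both others for Hoxa9 to Hoxa13, Hoxc5 to Hoxc8 and Hoxd8 to Hoxd13, with Hoxd13 the highest at 11.07 to 11.33.

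Other transcription factors that mark regions of the embryo were mostly lower. Of 69 measured 14 were higher and 35 lower (71% called), 23 of the lower ones at least 2-fold. Pax9, a factor of the jaw, palate and sclerotome, fell from 12.65, 12.61 and 12.72 to 6.83, 6.97 and 6.56, 58.5-fold, and was at 10.85, 10.92 and 10.88 in KO. Zic1 fell by 3.67, Dlx5 by 3.55, Tbx2 by 3.24, Foxd1 by 2.92 and Eya1 by 2.87, and Tbx1 fell by 2.83. The mesenchymal factors Prrx2 and Osr2 fell by 2.54 and 2.52. The rises included Foxf1 (1.86), a factor of visceral mesoderm, En1 (1.58), of ventral limb and dermis, Hand2 (1.36), of posterior limb, and Tbx5 (1.02), of forelimb and heart, which lay under the 40th percentile in both groups. Tbx15, a factor of skin and skeletal mesenchyme, was at 12.29, 12.20 and 12.16 in WT and 12.10, 12.20 and 12.09 in CK and was not called. In bulk samples, fewer cells of a type and less RNA per cell cannot be told apart, and this holds for each of these factors.

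Enzymes of cholesterol synthesis were mostly lower. Of 26 measured genes of synthesis, its control and export 19 were lower and 4 higher, with a median of -0.63. Against KO, 10 were lower in CK and 7 higher, with a median of -0.09. All 7 enzymes of the early steps were lower, from Hmgcs1, which condenses the first building blocks and fell from 11.98, 11.94 and 11.76 to 10.75, 10.49 and 10.47. Of 10 late enzymes 8 were lower, led by Tm7sf2 (-3.21) and Lss (-1.51), and Sqle, the squalene epoxidase, fell by 0.87. Insig1, which retains the sterol sensor, fell by 1.04. Of 9 genes of control and export 4 were higher and 4 lower, and the exporters Abcg1 and Abca1 rose by 1.86 and 1.67, although the receptor Nr1h3, an activator of both, fell by 2.04. The letters TCACNCCAC, a core of sterol regulatory elements, were in 1 of 21 promoters of the group, that of Hmgcs1 (4.76%, against 1.4% of all). Fatty acid synthesis genes were also mainly lower, 12 of 18, including Elovl7 (-4.66), Elovl6 (-1.26) and the factor Srebf1 (-1.04), while the lipid droplet coat Plin2 and the lipase Lpl rose by 1.71 and 2.59. Of 7 adipocyte factors 6 were lower, Pparg by 2.46 and Ebf1 by 1.57. Of 10 adipocyte markers 2 were lower and 1, Fabp4, was higher, by 1.03. For 6 of these markers both groups lay under the 40th percentile.

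Matrix genes changed in both directions, also within families. Collagenase Mmp13 rose from 7.66, 7.72 and 7.98 to 13.02, 12.95 and 12.74, 34.7-fold, and the stromelysin Mmp10 and the elastase Mmp12, its neighbours on chromosome 9, by 4.17 and 3.00. A further neighbour, Mmp3, was at 13.03, 13.03 and 13.33 in WT and 13.04, 12.95 and 12.87 in CK and was not called (adjusted p = 0.796), while its KO arrays were at 7.88, 5.93 and 6.25. The inhibitors Timp4, Timp3 and Timp2 were lower and Timp1 rose by 0.61, and Timp4 fell by 3.41. Of 9 ADAMTS proteases 6 were higher, Adamts7 by 1.61 and Adamts6 by 1.60, and Adamts10 fell by 1.52.

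Glypican Gpc3, which restrains growth signals at the cell surface, rose from 6.72, 6.53 and 6.62 to 12.25, 12.14 and 12.04, 45.9-fold, and was at 12.66, 12.70 and 12.72 in KO. The microfibril protein Mfap5 rose by 4.61 and keratocan, Kera, by 3.50. Heparanase, Hpse, fell from 12.92, 12.85 and 12.68 to 7.63, 7.14 and 7.57, and of 15 elastic fibre genes 10 were lower, with Eln falling by 2.65. Collagen I was not called (Col1a1 0.17, adjusted p = 0.203, and Col1a2 -0.12, adjusted p = 0.165), Col12a1 rose by 1.48, and Col23a1 fell by 3.30. Of 22 cartilage genes 12 were lower, 3 of them at least 2-fold, and 1 was higher (59.1% called), with a median of -0.20. For 5 of the 22 both groups lay under the 40th percentile. Cnmd, chondromodulin, fell from 13.32, 13.34 and 13.33 to 7.13, 7.28 and 7.47, 65.6-fold, and was at 13.85, 13.84 and 13.86 in KO. The cartilage factor Sox9 fell by 0.94 and Sp7, a factor of bone-forming cells, by 2.65. Of 41 integrins, cadherins and their ligands 19 were higher and 10 lower, with Itga7 (2.97), P-cadherin Cdh3 (2.79), the laminin chain Lama5 (2.77) and Itga6 (2.28) up and the collagen receptor Itga2 (-2.53) down.

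The largest rise of a named gene was that of Ankrd1, a target of the co-activator YAP, from 6.45, 6.50 and 6.64 to 12.24, 12.07 and 12.18, with 6.95, 6.62 and 6.95 in KO. The other targets of YAP did not move as it did. Of 9 in all 4 were higher and 4 lower, and Ccn2, which responds to YAP and TGF-beta, fell by 1.59. The matrix protein Dpt rose by 4.26, the protease Htra1 by 3.17 and the junction protein Jup by 2.76. The largest falls among genes at or above the 60th percentile in both groups were those of Serpina3n, a protease inhibitor of the acute phase, from 13.48, 13.46 and 13.43 to 9.34, 9.55 and 9.21, the water channel Aqp1, from 13.77, 13.76 and 13.67 to 9.83, 9.77 and 9.32, and the guidance molecule Sema3a (-3.40). Apoe, which carries lipids, fell by 2.60.

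Complement and acute phase genes were lower in 12 of 26 cases and higher in 2, and 53.8% were called against 42.3% of all genes. Both groups lay under the 40th percentile for 12 of the 26. Lbp, which presents bacterial lipid, fell from 11.83, 11.86 and 12.01 to 7.62, 7.69 and 7.29, with 7.57, 7.49 and 7.53 in KO. Cd59a, a brake on complement, fell by 4.66, Lcn2 by 3.33, C4b by 2.87 and C2 by 1.82, while Saa3 rose by 1.62. The adhesion molecule Icam1 fell by 2.60 and the chemokine Cxcl16 by 2.65. Of 18 chemokines 10 were higher and 4 lower, with Cxcl10, an interferon target, rising from 7.46 on each WT array to 10.20, 10.89 and 9.94, Cxcl14 by 2.35 and Ccl5 by 1.43. Of 11 genes that bind or make retinoic acid or its precursors 8 were higher and 1 was lower, with Dhrs9 rising by 3.90, Aldh1a1 by 2.58, the binding protein Crabp2 by 2.35 and the receptor Stra6 by 2.24, whereas 6 of 11 retinoid receptors and targets were lower, among them Nr2f1 (-2.35). Of 23 glycolysis genes 13 were higher and 3 lower. All 4 carriers were higher, among them the glucose carrier Slc2a3 (1.84), and of 19 enzymes 9 were higher and 3 lower. The largest changes among enzymes were the falls of Aldoc (-3.20) and Ldhb, a lactate dehydrogenase (-2.32), followed by rises of Eno3 (1.19) and Pgk1 (1.13). The oxygen sensor Egln3 rose by 4.50. The thyroid hormone-activating enzyme gene Dio2 went from 11.36, 11.23 and 11.57 in WT to 6.38, 6.41 and 6.52 in CK.

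Markers bore out fibroblasts in both groups. Vim, the filament of mesenchymal cells, was at 13.90, 13.93 and 13.93 in WT and 13.84, 13.86 and 13.85 in CK, and Thy1 was not called (-0.03, adjusted p = 0.879). Of 10 fibroblast markers 1 was higher, Fn1 (0.49), and 4 were lower, S100a4 (-1.11), Pdgfra (-0.73), Pdgfrb (-0.70) and Col3a1 (-0.59), and their summed log2 level was 126 to 127 on the WT arrays and 123 to 124 on the CK arrays. Of 8 macrophage markers, summing to 56.4 to 56.8 in WT and 53.8 to 54.4 in CK, Cd68 fell by 2.05 and Cd14 by 1.18 and Lyz2 rose by 0.70, and their part in the lower complement genes was not tested. The defining Csf1r, Adgre1 and Ptprc were at or near background in both groups, at 5.73 to 6.18. Of 6 endothelial markers, summing to 41.7 to 42.1 and 38.8 to 39.3, Tek fell by 2.26 and Cdh5 by 0.60 and Kdr rose by 0.20. Cdh5, Kdr and the defining Pecam1, which was not called, lay under the 40th percentile in both. Of 7 epithelial markers, summing to 48.3 to 49 and 49.4 to 50, Krt19 rose by 1.30, and the defining Epcam and Cdh1 were not called and lay under the 40th percentile in both. No skeletal muscle, neural or erythroid marker was called by limma, of 7, 6 and 2 measured, and 1 of them, the neural Tubb3 (difference 0.22, adjusted p = 0.0562), had an unadjusted p under 0.05. Xist was at 12.74, 12.69 and 13.12 in WT and 12.06, 12.05 and 12.21 in CK, and 3 Y-linked genes were not called.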

How the data were processed

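Affymetrix arrays of 9 samples, 3 per genotype, were used. The authors deposited log2 values per probe set, made with RMA in the R package affy per the submitters' processing notes, which give no versions. In the table used here the values carried no decimal mark. It was restored from the digits, which gave log2 values from 4.28 to 14.44, and probe sets whose arrays straddle 10 then varied by a median of 0.263, against 8.92 with the mark placed after 1 digit throughout.

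Of 34760 probe sets the platform annotation gave 21640 a single symbol, 1321 several and 11799 none. The brightest single-symbol probe set stood for each of 19937 genes. limma 3.58.1 in R 4.3.3 was fitted to all 9 arrays with genotype as the only term and no filter, and p-values were adjusted by the Benjamini-Hochberg method over all genes. On simulated data for CK against WT, with 19937 genes, the fit called 28% of 50 genes changed by 0.25, 76% at 0.5 and 100% at 1 and 2, with 2 calls among 19737 unchanged genes. The simulated noise was normal and independent, and few genes were changed, whereas 42.3% were called in the data. The Benjamini-Hochberg cutoff depends on the share of changed genes. These rates therefore cannot give the recovery or the number of false calls in the data. Precision is limited by the number of arrays, and the median SE of a CK minus WT difference was 0.0574. Tables and figures were made with Python 3.11.15, pandas 2.3.3 and matplotlib 3.10.9.

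Gene lists, 56 in all, came from textbook knowledge, and 1652 of 1777 entries matched a measured gene. The members and lists were chosen with earlier results of these data known. Genes were named by a rule: Cdkn1b, the 30 largest called rises and falls without overlap, the 15 largest among genes at or above the 60th percentile in both groups, and in each list up to 6 called genes of largest difference and 4 uncalled genes of highest level, or all members of lists of up to 16 genes. Other genes were named for their role and chosen after their values were seen. Clone and gene model names were left out. Promoter letters came from RefSeq, GRCm38.p6. Same-numbered arrays of CK and WT did not deviate together (correlations -0.0204, -0.177 and -0.0324), so numbers were not treated as pairs. Alternatives covered the filter, scaling, choice of probe set, moderation, threshold, block, arrays fitted and each array left out.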

Additional observations from a re-analysis of the deposited data

Results flagged for a closer look

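Among 13120 probe sets that the annotation gives no symbol or several, which entered no comparison above, 1278 were called between CK and WT by limma (9.74%), 742 higher in CK and 536 lower, and 206 at least 2-fold. They are listed here because they lie outside the named genes, and what they measure was not analysed here.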

How the results depend on the processing

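The count of genes called between CK and WT (8434) lay between 6785 and 8724 over all alternatives and between 7711 and 8494 with 1 array left out, and that of at least 2-fold calls (1452) between 1293 and 1486, with 1439 to 1486 for 1 array left out. Cdkn1b stayed lower, by -0.27 to -0.40, with adjusted p in limma of 0.013 or less. With the replicate number as a block, 8215 genes were called, 1452 at least 2-fold, and Cdkn1b had an adjusted p of 0.00395, so the pairing changed neither count by over 1.5 times. The count against KO (8274) lay between 6686 and 9734. Centring arrays on their medians moved the median of all genes from -0.01 to 0.04 and the share of higher calls against WT from 48.8% to 56.9%. Of 12 spliceosome genes lower in CK, 5 were called with chromosome parts centred and 6 at an adjusted p under 0.01. Hox genes higher fell in number from 24 to 11 with genes under the 40th percentile removed. Centring the 3 parts of each chromosome, chosen after seeing the data, reversed Orc3 (-0.27), Rps6 (-0.27), Eif4a1 (0.30), Pcolce (-0.27), Lox (0.16), Ebp (-0.16), Rora (-0.24), Sema4c (0.10), Eef1a1 (-0.16) and Actb (-0.25). Averaging probe sets reversed Srsf3 (-0.14) and Fabp3 (0.24). The numbers in brackets are the differences after that step, and the main fit gave the opposite sign. Apart from the centring and the filter themselves, the cause was not tested. Levels under the 40th percentile may be background, so differences from such levels are uncertain in size.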

Other observations

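Genes that guide axons and cells changed in both directions, 10 higher and 17 lower of 41 (65.9% called). The membrane protein Lrrn3 fell from 12.15, 12.16 and 12.14 to 6.90, 6.86 and 6.85, with an SE of 0.034 for the difference of -5.28. Sema6d fell by 2.59 and the Slit receptor Robo2 fell by 2.29, while Slit3, a ligand of that family, rose by 2.04 and the surface protein Lrrc15 by 4.49. Of 18 enzymes regulated by NRF2 10 were higher and 2 lower, and 7 higher and 5 lower with chromosome parts centred. The higher ones included Gclm (0.97), a subunit of the enzyme that starts glutathione synthesis, and Srxn1 (0.83). Of 17 glutathione transferases and peroxidases 10 were lower and 2 higher, with Mgst1 at -2.20 and Gstm2 at -1.49. Nqo1, a quinone reductase often used as a marker of NRF2, fell from 10.96, 10.89 and 10.88 to 7.14, 7.13 and 7.62.

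Lysosomal proteases were higher in 8 and lower in 3 of 13 cases, with the legumain gene Lgmn rising by 1.22 and Ctsc by 1.43 and Ctsh falling by 1.60. Of 17 hydrolases 5 were higher and 9 lower. Of 24 interferon genes 8 were higher and 5 lower (54.2% called, and 3 lower with chromosome parts centred). The sensor Ifih1 rose by 1.43 and Usp18 by 1.51. Of 8 antigen presentation genes 5 were lower and 0 higher in limma (62.5% called), with 2 higher at an unadjusted p under 0.05. The peptide transporters Tap1 and Tap2 fell by 0.68 and 0.69. Of 20 imprinted growth genes 5 were higher and 9 lower. Ndn, necdin, fell by 1.98, and Zim1 was at 6.95, 6.88 and 6.81 in WT, 8.98, 8.92 and 8.89 in CK and 12.28, 12.29 and 12.62 in KO, 3 levels without overlap. Of 17 clock genes 6 were higher and 6 lower, with Hlf rising by 2.27 and Per2 falling by 1.00. Slit3, Gclm and Srxn1 were chosen after their values were seen.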
